A study of Homo sapiens with 34 samples.

Results

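CCND1 encodes cyclin D1, and it was the gene that the study's constructs were built to change. It was found as the rows named CCND1 in the deposited tables of annotated 3′ UTR intervals, which gave 2 of 71668 intervals and 1 of 19041 genes, in all 34 libraries. The cells were hTERT RPE-1, a human retinal pigment epithelial line immortalized with telomerase, and all of them were grown in 0.5 µg/mL doxycycline, so that every group carried an induced construct. In the knockdown cells (P_TRE shCCND1) doxycycline drove a small hairpin RNA against the 3′ UTR of CCND1. In the overexpression cells (P_TRE CCND1) it drove the same hairpin together with a FLAG-tagged CCND1 allele that the hairpin spares. Both lines came from lentiviral transduction and were selected by sorting or with a drug, and they were polyclonal in their CCND1 expression. Cells took up 10 µM 4-thiouridine (s4U) from day 4, over 24 h in which the medium was renewed at 3 h steps, and were then chased in 1 mM uridine, while the unlabelled cells received 10 µM uridine instead. Uninduced cells were not analysed here, so the comparison is between the lines and not with unmodified cells. Each line had 17 libraries in 2 time courses. Knockdown course 1 was sampled at 0, 45, 180, 360, 720 and 1440 min of chase, and knockdown course 2 also at 10, 20 and 90 min. Overexpression course 1 was sampled at 0, 20, 90, 180, 360, 720 and 1440 min, and overexpression course 2 at 0, 10, 20, 45, 180, 360, 720 and 1440 min. Each course had its own unlabelled library, and whether the courses came from separate cultures is not stated in the labels, so p-values measure only the spread between these samples, which may be technical.

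Cyclin D1 binds the kinases CDK4 and CDK6 in G1. The complexes phosphorylate the retinoblastoma protein RB, which frees E2F transcription factors to drive the genes of S phase. The CCND1 mRNA has a long 3′ UTR that is known as a site of control by AU-binding proteins and microRNAs. In SLAM-seq, s4U built into RNA is alkylated and read as C, and the T>C rate is the number of such conversions over the T bases that the reads cover. In the chase the rate falls as unlabelled transcripts take the place of labelled ones, since the rate is a share. Loss of labelled and unlabelled transcripts alike leaves it unchanged.

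The 2 CCND1 intervals lie on the + strand of chromosome 11 in hg38, and their T counts in the files equalled those in the reference sequence. The larger one, chr11:69651283-69654474, is 3192 bases with 921 T and is the 3′ UTR in exon 5 of the main transcript of the gene, from the base after the stop codon to the annotated end. The smaller one, chr11:69648000-69648240, is 241 bases with 43 T. The annotation (GENCODE v44) gives it as 3′ UTR of a short transcript, but 143 of its bases are coding sequence of exon 4 in the main transcript and the other 98 are in the intron that follows. Windows of 30 bases show what the intervals hold, all from hg38 and read 5′ to 3′ on the + strand. The first is the 3′ end of the UTR interval, next to which an oligo(dT)-primed library starts, with the AATAAA poly(A) signal in capitals. The second crosses the edge of exon 4 in the smaller interval, with exon bases in capitals. The third is the window with the most ATTTA pentamers, the core of AU-rich elements, in capitals.
3′ end of the UTR, chr11:69654445-69654474: aagtctagaAATAAAactggtaaaacccca
edge of exon 4, chr11:69648128-69648157: ATCAAGTGTGACCCGgtaagtgagggtgat
ATTTA window, chr11:69652681-69652710: ATTTAtagttaaggctaaaaagtatATTTA

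The UTR interval held AATAAA once on its own strand, in the window shown, and 93.4% of the 1107 other intervals within 10% of its length held it at least once. It held ATTTA 7 times, 5 of them in the second of 4 equal parts, and 51.2% of those intervals had as many or more. The longer AU-rich nonamer TTATTTATT and the Pumilio motif TGTANATA were not found on the strand of the gene, while 13.6% and 44.4% of those intervals held them. T made up 28.9% of the UTR interval, against a median of 30.4% in the intervals of like length, and 14 of its last 100 bases. The mean number of covered T per read had a median over libraries of 18.4 in knockdown cells and 19.3 in overexpression cells. These T bases are the only positions at which the label can be seen.

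Nearly all CCND1 reads fell in the UTR interval, with 85313 of 85341 reads in knockdown cells and 29046 of 29161 in overexpression cells. The smaller interval held 28 reads in knockdown cells, in 3 of 17 libraries, against 115 in overexpression cells, in 8 of 17. In knockdown cells these were 16 reads at 180 min, 9 in the unlabelled library and 3 at 45 min, all in course 2, while course 1 had 0, which allows up to 0.0139 CPM over its libraries. In overexpression cells 54 of the 115 reads were in the unlabelled library of course 1, where they made 3.67 CPM, and no other overexpression library exceeded 0.374 CPM. On counts summed per course the smaller interval did not pass the test (log2 of -1.93, SE 1.91, adjusted p = 0.653, edgeR), and the call rate over 25128 intervals was 8.34%. The UTR interval did (log2 of 1.40, SE 0.14, adjusted p = 0.00149, edgeR). Without overexpression course 1 the log2 of the smaller interval was 0.027. The sources used here do not give the 3′ end of the induced allele, so its share of the reads in either interval was not tested. Since the hairpin is induced in both lines and the allele escapes it, this 3′ tag does not check the labels, and the names knockdown and overexpression are used as the labels give them. The study checked both manipulations on the protein, by Western blot and mass spectrometry, and those measurements were not analysed here.

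On this tag CCND1 was higher in the line labelled knockdown. It was at 77.1 to 192 CPM (CCND1 reads over the 3′ UTR reads of the library, scaled to 1000000) in the 17 knockdown libraries, with a median of 157, against 40.4 to 81.9 CPM in the 17 overexpression libraries, with a median of 57.2. The groups touched at 1 point only, where the unlabelled library of knockdown course 1 at 77.1 CPM lay under the 720 min library of overexpression course 2 at 81.9 CPM. Over the 6 samples that all courses share (unlabelled, 0, 180, 360, 720 and 1440 min) CCND1 was at 138 and 149 CPM in the knockdown courses and at 53.3 and 60.3 CPM in the overexpression courses. The summed counts differed by 2.54-fold (log2 of 1.35, SE 0.13, adjusted p = 0.000152, edgeR's quasi-likelihood test with Benjamini-Hochberg adjustment, 2 courses against 2), and the course pairs by a log2 of 1.19 to 1.49. In this test 2885 of 13165 genes were called, or 21.9%, and 5.43% of genes had a larger log2. CPM is a share of the RNA in the library, so more CCND1 mRNA per cell and a change in the rest of the RNA cannot be told apart. Multimapped reads were 0.245% of CCND1 reads in knockdown cells and 0.422% in overexpression cells.

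**Figure D1:**
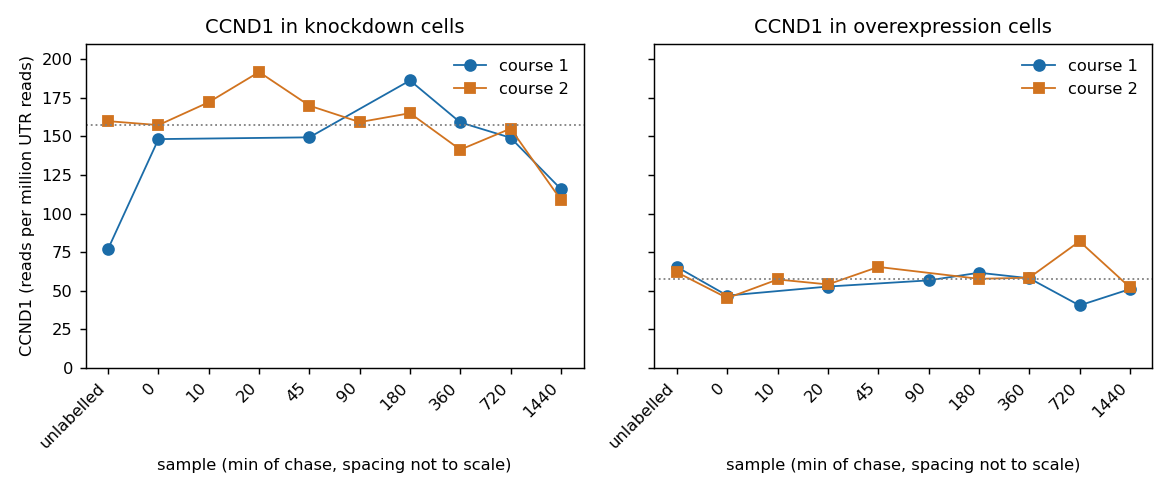
CCND1 level in CPM in each library, by sample (categories, spacing not to scale), in knockdown cells (left) and overexpression cells (right), with a point per library and the median of the line dotted. All knockdown libraries but the unlabelled one of course 1, at 77.1 CPM, lie above the highest overexpression library, at 81.9 CPM.

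Libraries differed in quality. They held 14712332 to 44480703 3′ UTR reads, and 31 of the 34 correlated with the mean of the rest of their line at r of 0.966 to 0.990 over 8343 genes. The other 3 stood apart, namely the unlabelled libraries of knockdown course 1 (r = 0.887) and overexpression course 1 (r = 0.917) and the 720 min library of overexpression course 1 (r = 0.863). In that 720 min library a CCND1 read covered 11.1 T on average, and in the unlabelled library of overexpression course 1 14.5 T, against 16.4 to 21.5 in the other 32. Their part in the results was not tested other than by leaving them out, which gave a log2 of 1.39 between the lines. Of the markers listed for the line, KRT8 was at 344 to 700 CPM in knockdown and 66.9 to 414 CPM in overexpression libraries. VIM was at 5440 to 10791 and 5903 to 10036 CPM, and KRT18 and MITF were also read in every library. Other markers listed for the line were low, with KRT7 at medians of 9.95 and 5.09 CPM, OTX2 at 1.73 and 2.47 CPM and TERT at 0 in 9 of 17 libraries of each line. RPE65, of differentiated pigment epithelium, and PTPRC, of blood cells, were at or near 0 (highest 0.315 and 0.367 CPM). The epithelial genes EPCAM and CDH1, listed for other cell types, were at or near 0 as well (highest 0.543 and 0.476 CPM).

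Sample by sample the line difference had the same direction at all 6 samples, and 4 passed the test. At 0 min CCND1 was at 148 and 157 CPM in knockdown cells, against 46.7 and 45.1 CPM in overexpression cells (log2 of 1.73, SE 0.29, adjusted p = 0.00157). The lines did not overlap there, which 2 libraries against 2 can show without a difference, and how many genes do so was not counted. At 180 min the levels were 186 and 165 CPM in knockdown cells and 61.6 and 57.6 CPM in overexpression cells (log2 of 1.58, adjusted p = 0.00289). At 360 min they were 159 and 141 CPM, against 58.0 and 58.3 CPM (log2 of 1.41, adjusted p = 0.00681), and at 720 min 149 and 155 CPM, against 40.4 and 81.9 CPM (log2 of 1.34, adjusted p = 0.00897). The overexpression courses thus stood further apart at 720 min than the knockdown courses. At 1440 min the levels were 116 and 109 CPM in knockdown cells and 50.9 and 52.1 CPM in overexpression cells, which did not pass (log2 of 1.12, SE 0.29, adjusted p = 0.0560). In the unlabelled sample they were 77.1 and 160 CPM, against 65.3 and 61.8 CPM (log2 of 0.95, SE 0.28, adjusted p = 0.0572), and the knockdown courses differed there by more than any other pair. Of 13108 genes, edgeR called 4.83% in the unlabelled sample, 3.11% at 0 min, 2.72% at 180 min, 3.49% at 360 min, 4.33% at 720 min and 1.34% at 1440 min. Leaving out the 3 libraries that stood apart, a choice made after seeing the data, left a single unlabelled library of each line, with a log2 of 1.41. At 1440 min it removed no library, and the log2 stayed at 1.12. This sample then passed with a spread estimated without those 3 (adjusted p = 1.19e-06, edgeR), so the pass adds no measurement. The value of the unlabelled sample rested on the knockdown courses, with a log2 of 0.34 without knockdown course 2 (adjusted p = 0.575) and 1.37 without knockdown course 1 (adjusted p = 0.145). At 720 min the log2 was 0.93 without overexpression course 1 (adjusted p = 0.298) and 1.93 without overexpression course 2.

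**Figure D2:**
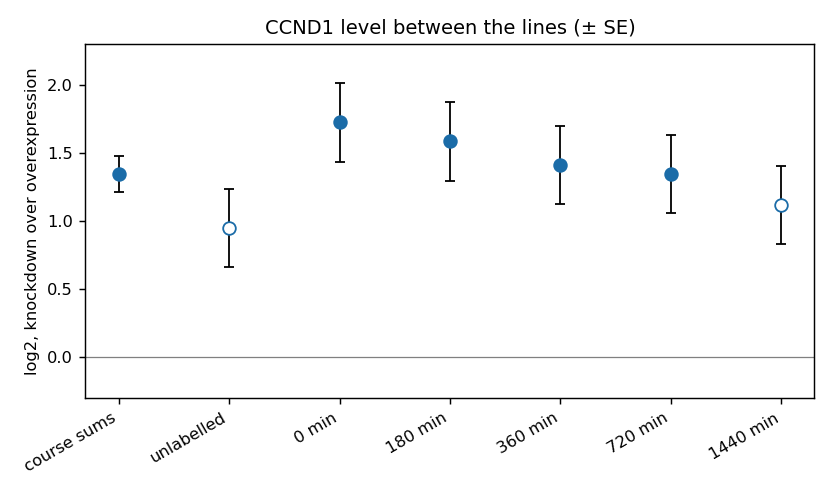
Log2 of CCND1 abundance in knockdown over overexpression cells with the fit's SE, for the course sums and for each shared sample, filled where the adjusted p was under 0.05. All 7 values lie above 0, between 0.95 in the unlabelled sample and 1.73 at 0 min, and those of the unlabelled sample and of 1440 min are open.

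Over the chase no change in the level of CCND1 passed the test. The 13 later libraries of knockdown cells stood at 0.692 to 1.26 times the 0 min level of their course, and the 13 of overexpression cells at 0.863 to 1.82 times. Both ends of the overexpression range were at 720 min, with 0.863 in course 1 and 1.82 in course 2. In knockdown cells the level at 1440 min was 0.781 and 0.692 of that at 0 min in courses 1 and 2, and in overexpression cells 1.09 and 1.16 of it. The fitted changes were a log2 of -0.51 in knockdown cells (SE 0.28, adjusted p = 1.00, edgeR) and 0.10 in overexpression cells (SE 0.28, adjusted p = 1.00, edgeR). So both knockdown courses ended lower and both overexpression courses higher than they began. Such a split can arise with 2 courses against 2 without a difference, and how many genes show it was not counted. The difference between the lines was a log2 of -0.61 (SE 0.40, adjusted p = 1.00, edgeR). At this contrast edgeR called 0.191% of genes in knockdown cells, 0.0229% in overexpression cells and 0% for the difference, where 201 of 13108 genes had an unadjusted p under 0.05. Averaged over both lines the change was -0.21 (SE 0.20, adjusted p = 0.977, edgeR), with 0.465% of genes called. At 180 min it was 0.28 (SE 0.20, adjusted p = 1.00, edgeR), and the level was above that at 0 min in all 4 courses, by 1.05 to 1.32 times. The pulse itself gave no call. CCND1 at 0 min over unlabelled was at a log2 of 0.35 in knockdown cells and -0.43 in overexpression cells, with a mean of -0.04 (SE 0.20, adjusted p = 1.00, edgeR), and 0% of genes were called (1065 at an unadjusted p under 0.05). Without the 3 libraries that stood apart, 2 of which were unlabelled, the mean was -0.22 (adjusted p = 0.886).

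CCND1 reads were also split into those with and without a conversion, which is not a split into new and old transcripts. A read of a labelled transcript can carry no conversion, since only a small share of T bases is converted. In knockdown cells CCND1 reads without a T>C conversion were at 130 and 138 CPM at 0 min and at 115 and 108 CPM at 1440 min. In overexpression cells they were at 41.9 and 37.5 CPM at 0 min and at 50.7 and 51.7 CPM at 1440 min. The reads with a conversion were 17.8 and 19.7 CPM at 0 min in knockdown cells, against 4.84 and 7.63 CPM in overexpression cells, and fell to 1.09 and 0.444 CPM at 1440 min in knockdown cells and 0.210 and 0.441 CPM in overexpression cells. They were thus a small part of CCND1 reads in both lines even at the end of the pulse.

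After the pulse CCND1 carried label at a rate close to that of other genes. Its T>C rate at 0 min was 0.699% (Wilson 95% interval 0.646% to 0.756%) and 0.747% (0.700% to 0.796%) in knockdown courses 1 and 2, and 0.607% (0.528% to 0.699%) and 0.824% (0.723% to 0.938%) in overexpression courses 1 and 2. Reads carry no molecular identifiers, so these intervals cover counting error only. In the unlabelled libraries the rate was 0.00457% and 0.00559% in knockdown cells and 0% and 0.0498% in overexpression cells, from 2, 6, 0 and 19 conversions. The background of overexpression course 2 was thus the highest of the 4. After subtraction the rate of CCND1 was above that of 40.0% and 45.7% of genes in the knockdown courses and of 28.4% and 43.3% in the overexpression courses. It did not differ between the lines by limma (log2 of 0.06, SE 0.25, adjusted p = 0.975), a test that called 0% of 8592 genes (521 at an unadjusted p under 0.05).

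In the first 45 min of the chase the rate of CCND1 stood above its starting value in all 4 courses, in 7 of 8 libraries. In knockdown course 1 it was 1.02% at 45 min. In knockdown course 2 it was 0.855%, 0.983% and 0.810% at 10, 20 and 45 min. In overexpression course 1 it was 0.734% at 20 min, and in overexpression course 2 it was 1.19%, 0.955% and 0.706% at 10, 20 and 45 min. The highest values were 147%, 132%, 121% and 148% of the corrected rate at 0 min in knockdown courses 1 and 2 and overexpression courses 1 and 2, while the rate over all 3′ UTR reads stayed at 90.9% to 99.7% of its own start at these times. With the conversions at 10 to 45 min pooled, CCND1 stood at 1.47 and 1.20 times its rate at 0 min in the knockdown courses and at 1.21 and 1.19 times in the overexpression courses, against medians over genes of 0.934 and 0.926, and of 0.844 and 1.02. Of the genes measured, 11.9% and 20.0% had a larger ratio in the knockdown courses and 17.0% and 28.8% in the overexpression courses. This comparison was chosen after the rates were seen, and it did not pass over 7364 genes (log2 of 0.33, SE 0.13, adjusted p = 0.837, limma, 4 courses). The test called 0% of genes, with 358 at an unadjusted p under 0.05, and also 0% when each course was centred on its median gene (CCND1 log2 of 0.44, adjusted p = 0.930).

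**Figure D3:**
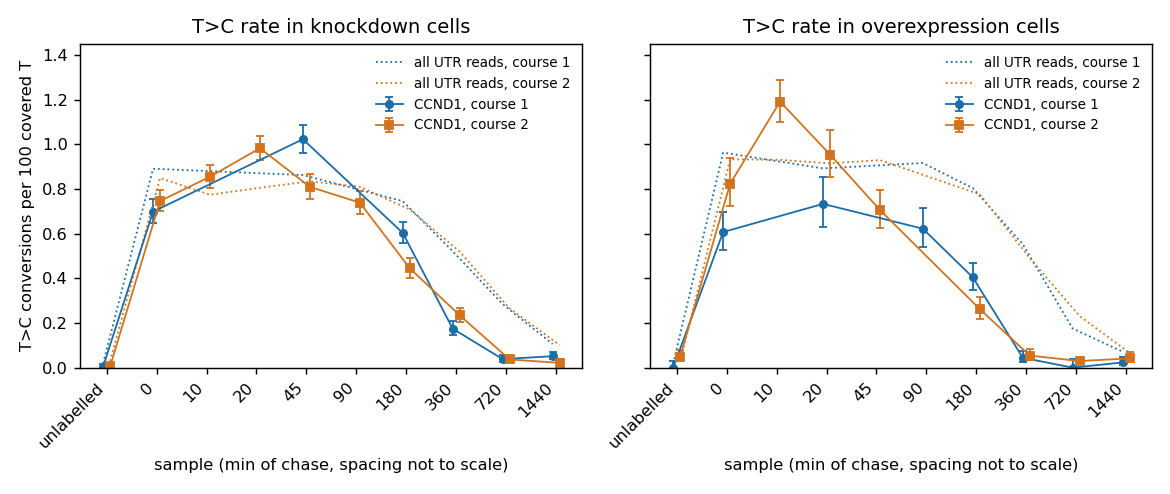
T>C conversions of CCND1 per 100 covered T in each library with Wilson 95% intervals, by sample (categories, spacing not to scale), in knockdown cells (left) and overexpression cells (right), beside the rate over all 3′ UTR reads (dotted). CCND1 starts at 0.607% to 0.824%, peaks between 10 and 45 min and lies below the rate over all reads from 180 min on.

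By 360 min CCND1 had lost more of its label than the library as a whole in all 4 courses, but among single genes it stood near the middle in knockdown cells. At 180 min CCND1 kept 86.3% and 59.3% of its corrected rate in knockdown courses 1 and 2, against 66.6% and 27.4% in overexpression courses 1 and 2, while all 3′ UTR reads kept 82.7% to 83.3%. At 360 min it kept 24.5% and 30.9% in knockdown cells, against 7.30% and 0.539% in overexpression cells, and all reads kept 51.1% to 59.8%. The median gene kept 36.5% and 42.8% in the knockdown courses and 35.8% and 27.7% in the overexpression courses, and 37.2% and 37.5% of genes kept less than CCND1 in knockdown cells, against 16.1% and 14.2% in overexpression cells. Both knockdown courses were thus above both overexpression courses at 360 min, which 2 courses against 2 can show without a difference. In overexpression course 2 the 18 conversions left at 360 min gave a rate of 0.0539% beside a background of 0.0498%. At 720 min it kept 4.87% and 4.18% in knockdown cells. In overexpression course 1 there were 0 conversions over 9743 covered T, which allows a rate of up to 0.0308%, and in course 2 the rate of 0.0296% was under the background, so both were set to 0. At 1440 min it kept 6.72% and 2.14% in knockdown cells, from 37 and 12 conversions, and 3.86% and 0% in overexpression cells. At that time 77.7% and 65.5% of genes kept less than CCND1 in the knockdown courses. The share was 74.8% in overexpression course 1 and 0% in overexpression course 2, where CCND1 itself was at 0. The label left in knockdown over overexpression cells was a log2 of 0.74 at 180 min (SE 0.58, adjusted p = 0.938) and 3.79 at 360 min (SE 1.41, adjusted p = 0.857) by limma. Neither passed, and limma called 0% of 8175 genes at 180 min and 0% of 7112 at 360 min (465 and 357 at an unadjusted p under 0.05). Both values depended on the overexpression courses. At 180 min the log2 was 0.10 without overexpression course 2 (adjusted p = 1.00) and 1.38 without course 1 (adjusted p = 1.00), and at 360 min it was 1.91 without course 2 (adjusted p = 0.886) and 5.67 without course 1 (adjusted p = 0.494). At 720 and 1440 min no log2 could be formed, since a course was at 0.

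The fall in the rate was not even over the chase. In knockdown course 1 the decay constant of CCND1 was 0.0492 per h from 0 to 180 min, 0.420 from 180 to 360 min and 0.269 from 360 to 720 min. In knockdown course 2 these constants were 0.174, 0.217 and 0.33 per h. From 720 to 1440 min, on few conversions, they were -0.0270 and 0.0560 per h in knockdown courses 1 and 2. The rate over all reads gave 0.0931 and 0.0996 per h there. In overexpression courses 1 and 2 the constants of CCND1 were 0.136 and 0.431 per h up to 180 min and 0.737 and 1.31 per h from 180 to 360 min. The value of 1.31 rests on the 360 min rate of course 2, which was not above its background beyond counting error, so it has no upper limit. In all 4 courses the constant was thus higher from 180 to 360 min than before, and the rate over all reads showed the same order, with 0.0607 to 0.0634 per h up to 180 min and 0.109 to 0.160 per h from 180 to 360 min. A single exponential through the 0 min value therefore describes these points only in part.

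Fitted that way, the half-life of CCND1 mRNA was 4.99 h and 4.51 h in knockdown courses 1 and 2 (SE of the fit 2.52 and 1.37 h), against 3.60 h and 2.07 h in overexpression courses 1 and 2 (SE 1.20 and 0.95 h). The fit takes the level as constant over the chase. The hairpin against this 3′ UTR was induced in all libraries, so this half-life and the production index below are values under it. Whether they hold without the hairpin was not tested. The R2 of the fits was 0.753, 0.865, 0.862 and 0.845 over 6, 9, 7 and 8 times. The means were 4.75 ± 0.34 h in knockdown cells and 2.83 ± 1.09 h in overexpression cells (SD, n = 2 each). The lines did not overlap, which 2 courses against 2 can show without a difference, and how many genes do so was not counted. The half-life ratio of the lines was 1.74-fold (log2 of 0.80, SE 0.37) and did not pass (adjusted p = 0.644, limma, 3317 genes that had a half-life in every course, of which 0% were called and 256 had an unadjusted p under 0.05). The median log2 over those genes was 0.20, and 7.69% of them had a larger one. With 2 courses a line this does not show that the half-lives are alike. Within each course, 59.3% and 42.3% of genes had a shorter half-life than CCND1 in knockdown cells, where the medians over genes were 4.31 and 5.04 h, and 32.9% and 13.9% in overexpression cells, where they were 4.62 and 4.11 h. Leaving out overexpression course 2 brought the log2 to 0.40, and leaving out overexpression course 1 brought it to 1.20, so the size of the difference depended on which of these was used. The courses were also sampled at different early times. With only the times that all courses share, the half-lives were shorter, at 4.31 and 3.55 h in knockdown and 2.87 and 1.49 h in overexpression courses 1 and 2. A log-linear fit from 180 min on with a free intercept gave 6.39 and 4.38 h in knockdown cells and 6.88 h in overexpression course 1, where the order of the lines turned, and no value in overexpression course 2.

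**Figure D4:**
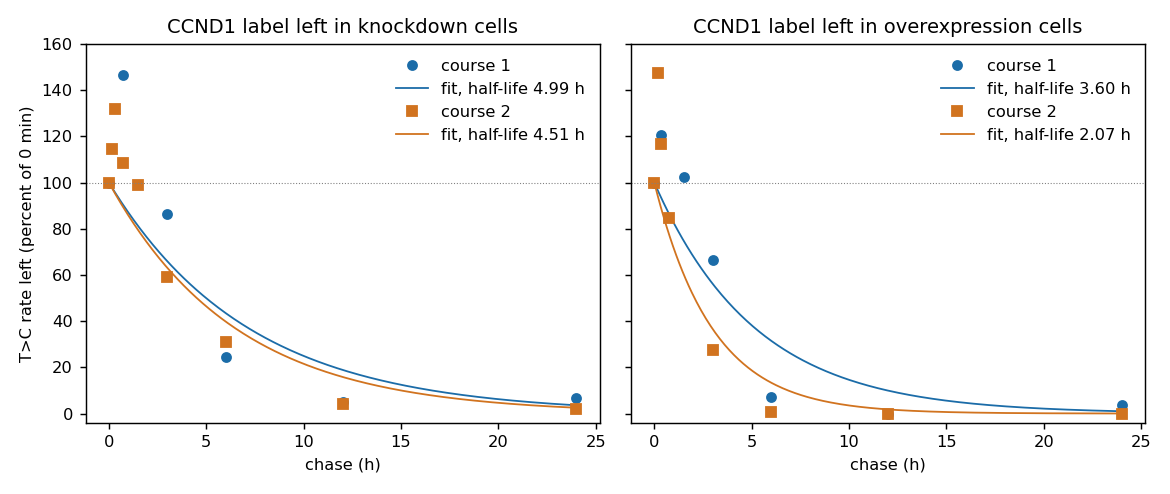
Background-corrected T>C rate of CCND1 as a percent of that at 0 min against hours of chase, with the fitted exponential, in knockdown cells (left) and overexpression cells (right). Points at 10 to 45 min lie above 100% in all courses (one at 84.8%, overexpression course 2 at 45 min), and the fits give 4.99 and 4.51 h in knockdown and 3.60 and 2.07 h in overexpression cells.

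The product of the level at 0 min and the decay constant, an index of production at steady state, was 20.6 and 24.2 CPM per h in knockdown cells, against 9.0 and 15.1 CPM per h in overexpression cells. The values did not overlap, but the difference did not pass (log2 of 0.94, SE 0.40, adjusted p = 0.378, limma, 0% of 3317 genes called and 438 at an unadjusted p under 0.05). The median log2 over all genes was -0.20. With the mean level of the 6 shared samples in place of that at 0 min, the log2 of CCND1 was 0.54.

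Genes that work with cyclin D1 were read in the same course sums. Here and below, rose and fell mean higher and lower in knockdown than in overexpression cells. Which line had changed was not tested. Of the other D-type cyclins, CCND3 was at 47.4 and 56.0 CPM in knockdown courses, against 39.2 and 45.1 CPM in overexpression courses (log2 of 0.30, adjusted p = 0.185), and the interval of CCND2 was at 0 in all of them. The partner kinase CDK6 rose in knockdown cells (191 and 170 CPM, against 118 and 111 CPM, log2 of 0.66, adjusted p = 0.00374, edgeR), while CDK4 was at 266 and 241 CPM, against 254 and 334 CPM (log2 of -0.21, adjusted p = 0.355, edgeR). RB1 fell (69.2 and 60.4 CPM in knockdown, against 108 and 90.3 CPM in overexpression courses, log2 of -0.61, adjusted p = 0.0103, edgeR).

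The S phase genes under RB and E2F were lower in knockdown cells without exception, as 20 of 20 were called (median log2 of -1.32), against a background of 10.7% of genes called lower, 11.2% called higher and a median of -0.01. MYBL2, a transcription factor of proliferating cells, was at 57.1 and 68.5 CPM in knockdown courses, against 226 and 284 CPM in overexpression courses. RRM1, the large subunit of ribonucleotide reductase, moved least of the 20 (391 and 414 CPM, against 706 and 666 CPM, log2 of -0.76). Of 12 genes of the RB family and its partners 7 fell and none rose, with E2F2 at a log2 of -2.91, RBL1 at -1.64 and E2F1 at -1.54. The CDK inhibitors CDKN2C and CDKN2D, which act on CDK4 and CDK6, fell as well (log2 of -1.19 and -1.28), and the other 5 of that list did not pass. CCNE1 rose (log2 of 0.73), while CCNE2 and the phosphatase CDC25A fell (log2 of -0.58 and -0.85), and 4 of these 7 did not pass. These lists were chosen with earlier results of these data known.

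The counts that follow stand beside 11.2% of all genes called higher, 10.7% called lower and 21.9% called in either direction. Among 9 genes of cyclin D1 protein turnover, CUL4B, CRYAB and USP2 rose (log2 of 0.61, 1.36 and 1.07) and FBXO4 and SKP2 fell (log2 of -0.77 and -0.94). Of 16 genes listed for transcription upstream of CCND1, FOSL1, EGR1 and KLF4 fell (log2 of -1.14, -1.19 and -1.66) and none rose, a share near that of all genes, and the median log2 of the list was -0.02. KLF4 was low in both lines, at medians of 0.769 CPM in knockdown and 2.99 CPM in overexpression libraries. EGR1 swung between libraries, from 1.37 to 494 CPM in knockdown and from 4.08 to 225 CPM in overexpression cells. Of 12 proteins that bind the CCND1 mRNA (median log2 of -0.31, against -0.01 over all genes) 5 fell and none rose, namely HNRNPD, which binds AU-rich elements (449 and 396 CPM in knockdown, against 730 and 711 CPM in overexpression courses, log2 of -0.77), KHSRP (-0.57), NUDT21 (-0.51), TIA1 (-0.52) and ZFP36L2 (-0.47). Of the 16 neighbours of CCND1 on 11q13, 10 were tested, and CTTN rose (log2 of 0.53) and PPP6R3 fell (-0.41), again a share near that of all genes. In all, 48 of 96 tested genes of these lists were called, 6 higher and 42 lower, and 20 of the 48 were the S phase genes. Over the chase 1 of 96 was called, CPT1A, a carnitine acyltransferase, at a log2 of -0.94 (adjusted p = 0.0300, edgeR).

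**Figure D5:**
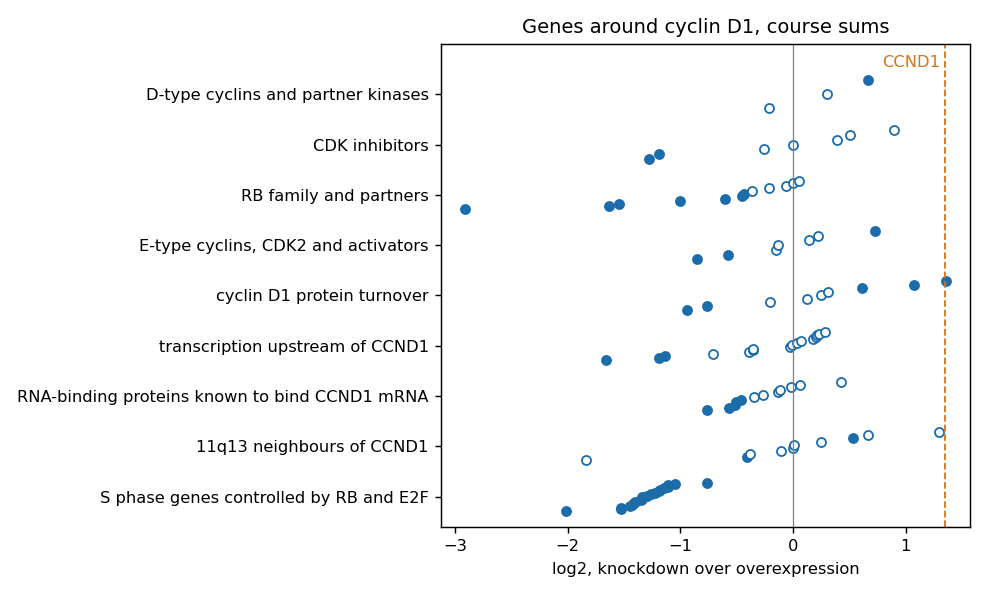
Log2 of abundance in knockdown over overexpression cells for the genes of each list, a point per gene, filled where the adjusted p was under 0.05, with the value of CCND1 dashed. The 20 S phase genes all lie below 0, between -2.02 and -0.76, and CCND1 lies at 1.35.

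The genes most like CCND1 across the 34 libraries were named by Pearson's r of log2(CPM + 1) over 8343 genes with a mean of at least 10 CPM. They were TGFBI (r = 0.947), CERCAM (0.938), SPARC (0.936), BLCAP (0.932) and MXD4 (0.927), and all 5 were higher on average in knockdown than in overexpression libraries, as with TGFBI at 1251 and 492 CPM. This r mostly follows the line. Within lines, as r of the deviations from the line means, they were ALPK2 (0.822), R3HDM4 (0.805), PLEKHM1 (0.795), STX4 (0.745) and SLC7A5 (0.742). The libraries differ in depth and 3 of them stand apart, which these correlations share. By label left at 180, 360, 720 and 1440 min over the 4 courses, the closest of 7868 genes were EFNB2, ARHGAP22, LRRC8A, SOCS4 and ZHX1, whose values differed from those of CCND1 by 6.86 to 7.33 percentage points (root mean square). ARHGAP22, for one, had a mean half-life of 3.37 h in knockdown and 2.18 h in overexpression courses.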

How the data were processed

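The authors' sequencing service made 3′ end libraries (QuantSeq FWD) from 75 ng RNA, read 100 nt and processed with SLAMdunk 0.4.3 on hg38. The deposited tables hold, per 3′ UTR interval, raw counts of reads, T>C reads, covered T and conversions. The deposited CPM column served only to recover mapped reads, and the deposited conversion rate is a fraction that equalled conversions over covered T. Intervals named for several genes were left out (1168 intervals), and for decay also 7814 with over 10% multimapped reads. Abundance was tested with edgeR 4.0.16 (quasi-likelihood, TMM, filterByExpr), other measures with limma 3.58.1, at an adjusted p of 0.05. Half-lives follow the study's methods: rate minus that of the unlabelled library of the course (negative set to 0), over 0 min, at least 1 CPM and 4 times, R2 of at least 0.6. No time point was dropped for a low share of labelled genes, a filter that the study used. The tests were tested on simulated data. CCND1 is reported in full, list members where called or where D-type cyclins, CDK4, CDK6 or RB1, and the 5 most similar genes per measure. Motifs were searched on the gene's strand only. CCND1 and the gene lists were chosen with earlier results of these data known. Alternatives are given in the closing section.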

Additional observations from a re-analysis of the deposited data

Results flagged for a closer look

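The level of CCND1 at 1440 min over 0 min went in opposite directions in the lines, lower in both knockdown courses (0.781 and 0.692 of 0 min) and higher in both overexpression courses (1.09 and 1.16). The difference, a log2 of -0.607, did not pass its own test (adjusted p = 1.00, edgeR). Without the 3 libraries that stood apart, a choice made after seeing the data, the log2 was -0.61 (adjusted p = 0.876, edgeR).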

How the results depend on the processing

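The line difference in abundance (log2 of 1.25 to 1.47 over 12 alternatives) and that of the UTR interval (1.30 to 1.54 over 8) passed throughout. Genes called numbered 2885, but 5251 with a replicate block and 5322 with all 34 libraries as samples. CCND1 was at a log2 of 1.35 with the replicate block, which changed no call on CCND1. Deviations of same-numbered courses correlated across lines at r = 0.509, over only 2 pairs, so the numbers were not taken as pairing. With the block the half-life stayed at 0.80 (adjusted p = 0.695) and the chase change at -0.21. At single samples DESeq2 and no filter on low counts called the unlabelled sample (0.94 and 0.94) and 1440 min (1.12 and 1.12), and mapped reads as size called the unlabelled sample (1.03). Leaving out the 3 libraries that stood apart called 1440 min (1.12), while in the unlabelled sample it left a single library of each line (1.41). Without each course in turn, the log2 was 0.34 to 1.37 in the unlabelled sample, 1.66 to 1.77 at 0 min, 1.53 to 1.64 at 180 min, 1.34 to 1.48 at 360 min, 0.93 to 1.93 at 720 min and 1.09 to 1.16 at 1440 min, and calls were lost without knockdown course 1 (all 4 times), knockdown course 2 (360 and 720 min) and overexpression course 1 (720 min). The s4U effect (-0.04) was -0.22 to 0.24 on leaving out courses, turning positive without knockdown course 2. The rate at 0 min (0.06) was -0.11 to 0.24 likewise, and -0.073 as share of reads with a conversion. The smaller interval was at -8.47 to 0.027, turning positive without overexpression course 1, where -8.47 is a fit against a course with 0 reads and gives no size. Counts of called genes varied more than the values of CCND1. They were 633 in the unlabelled sample, 408 at 0 min, 356 at 180 min, 458 at 360 min, 568 at 720 min and 175 at 1440 min, but 1387, 746, 755, 873, 1245 and 433 with DESeq2, and for 1440 over 0 min 61, but 166 with DESeq2, 606 without the 3 libraries and 1046 with 720 and 1440 min together. For intervals they were 2096, but 5172 with the replicate block, 3507 with no filter and 3755 without the 3 libraries. In the alternatives that could be tested, half-life (0.40 to 1.20), label left at 180 min (0.10 to 1.38) and at 360 min (1.91 to 5.67) and the production index (0.54 to 1.31) kept their direction and did not pass. The log-linear fit from 180 min and the fit up to 360 min gave no half-life in 1 course each, so no difference was tested, and in the log-linear fit overexpression course 1 (6.88 h) was above both knockdown courses (6.39 and 4.38 h). The list count was 38 to 67 of 96 to 99. Late rates rest on 0 to 37 conversions at 720 and 1440 min, and in overexpression course 2 also on a background of 0.0498%.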
